A study of Mus musculus with 48 samples.

Results

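The miRNAs miR-383-5p, miR-504-5p, miR-490-3p and miR-6540-5p (mmu-miR-383-5p, mmu-miR-504-5p, mmu-miR-490-3p and mmu-miR-6540-5p in the table) were followed across all 48 small RNA libraries of mouse ganglia. They are 4 of the 1978 miRNAs in the deposited table. They were picked by name because their levels were strongly unequal between the saline libraries of the trigeminal ganglion (TG) and of the superior cervical ganglion (SCG). In those libraries miR-383-5p and miR-504-5p were higher in TG, and miR-490-3p and miR-6540-5p were higher in SCG. That saline contrast is therefore given as a description, with no test. The tests below use the LPS libraries, the effect of LPS within each ganglion, time, sex and the second arm of each hairpin.

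A miRNA is cut from 1 arm of a hairpin transcript and guides the silencing machinery to messenger RNAs, mainly by pairing of its seed, bases 2 to 8. Many miRNA hairpins lie in introns of protein-coding genes. TG holds the sensory neurons of the face, with satellite glia and Schwann cells. SCG holds sympathetic neurons, which send axons to targets in the head and neck. Among miRNAs known for their cell type, the miR-183, miR-96 and miR-182 cluster marks sensory neurons and miR-124 marks neurons in general. miR-504 is known as a repressor of p53.

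The mice were Balb/c, aged 2.5 months, and received 1 intraperitoneal injection of 0.2 mL saline, with or without lipopolysaccharide (LPS, an outer-membrane glycolipid of bacteria that provokes inflammation throughout the body) of Escherichia coli at 2.5 mg/kg. No allele or other agent is named. Ganglia were taken at 4 h, 24 h or 7 d, which gives 12 groups of 4 libraries (2 female, 2 male) and 24 libraries for each ganglion. Each library of a group is from its own mouse. The labels do not link SCG libraries with TG libraries of the same mouse, so the 2 ganglia were compared without an animal term. Both ganglia of a kind were taken from each mouse, so a library holds all the cells of the ganglia and any tissue left on them. Fewer cells of a type and less RNA per cell cannot be told apart in such bulk samples. Levels are CPM (counts scaled to the same library total) after TMM scaling, which corrects for a few abundant miRNAs taking a larger share of a library.

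Mature sequences are shown for the members and second arms that a reference table held. RefSeq's table (GRCm38.p6) held a mature sequence for 2 of the 4 members, miR-504-5p and miR-490-3p, and for 1679 of the 1978 miRNAs of the table. The seed is in capitals.
mmu-miR-504-5p: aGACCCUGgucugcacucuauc
mmu-miR-490-3p: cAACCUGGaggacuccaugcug
mmu-miR-490-5p: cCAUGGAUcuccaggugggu
mmu-miR-6540-3p: uCUGAAGCuugcuuaccucca
miR-504-5p lies at chrX:59097705-59097726 on the minus strand and miR-490-3p at chr6:36421800-36421821 on the plus strand. No other miRNA of the table with a sequence shared the seed of miR-504-5p or of miR-490-3p. The 2 hairpins below are shown whole because both of their arms were counted and are compared below. Capitals mark both mature arms in Mir490, and in Mir6540 miR-6540-3p only, the arm with a RefSeq sequence.
Mir490 hairpin: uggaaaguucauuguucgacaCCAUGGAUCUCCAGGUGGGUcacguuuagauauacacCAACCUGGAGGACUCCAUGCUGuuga
Mir6540 hairpin: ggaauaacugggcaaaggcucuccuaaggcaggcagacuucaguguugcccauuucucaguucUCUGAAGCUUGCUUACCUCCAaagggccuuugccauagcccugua
They lie at chr6:36421742-36421825 on the plus strand and at chr16:42303362-42303469 on the minus strand. miR-383-5p and miR-6540-5p are given by name only.

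All 4 hairpins lie in an intron of a protein-coding gene, on the gene's own strand and without overlap of an exon (GENCODE M21, GRCm38). Mir383 lies in Sgcz on chromosome 8, which encodes a sarcoglycan. Mir504 lies in Fgf13 on the X chromosome, which encodes an intracellular growth-factor homologue that binds voltage-gated sodium channels. Mir490 lies in Chrm2 on chromosome 6, the muscarinic M2 acetylcholine receptor. Mir6540 lies in Gap43 on chromosome 16, a growth-cone protein of neurons. Of the 1019 hairpins of the table that the annotation placed, 411 (40.3%) lie in such an intron. The host transcripts were not measured in these small RNA libraries.

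A library held between 1774047 and 5592766 miRNA counts, and the TG libraries were deeper (median 4101287) than the SCG libraries (median 2916062). The ganglion labels held for the sensory markers: miR-183-5p ran from 29410 to 51740 CPM in the 24 TG libraries, and its median was 554 CPM in 23 SCG libraries. In SCG, 3 libraries stood apart. SCG 7 d LPS replicate 2 held miR-124-3p at 3.58 CPM, against 104 to 218 CPM in the other 23 SCG libraries. Its leukocyte markers summed to 9670 CPM and its muscle marker miR-1a-3p stood at 33980 CPM, against a median of 553.5 CPM. SCG 24 h saline replicate 1 held miR-183-5p at 12810 CPM, the highest of SCG and below all of TG. SCG 4 h saline replicate 1 held miR-1a-3p at 86500 CPM and the skin and epithelium marker miR-203-3p at 9876 CPM, against a median of 278 CPM. The part of these tissues in the members' levels was not tested, and most results that rest on the libraries are given with and without them.

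**Figure D1:**
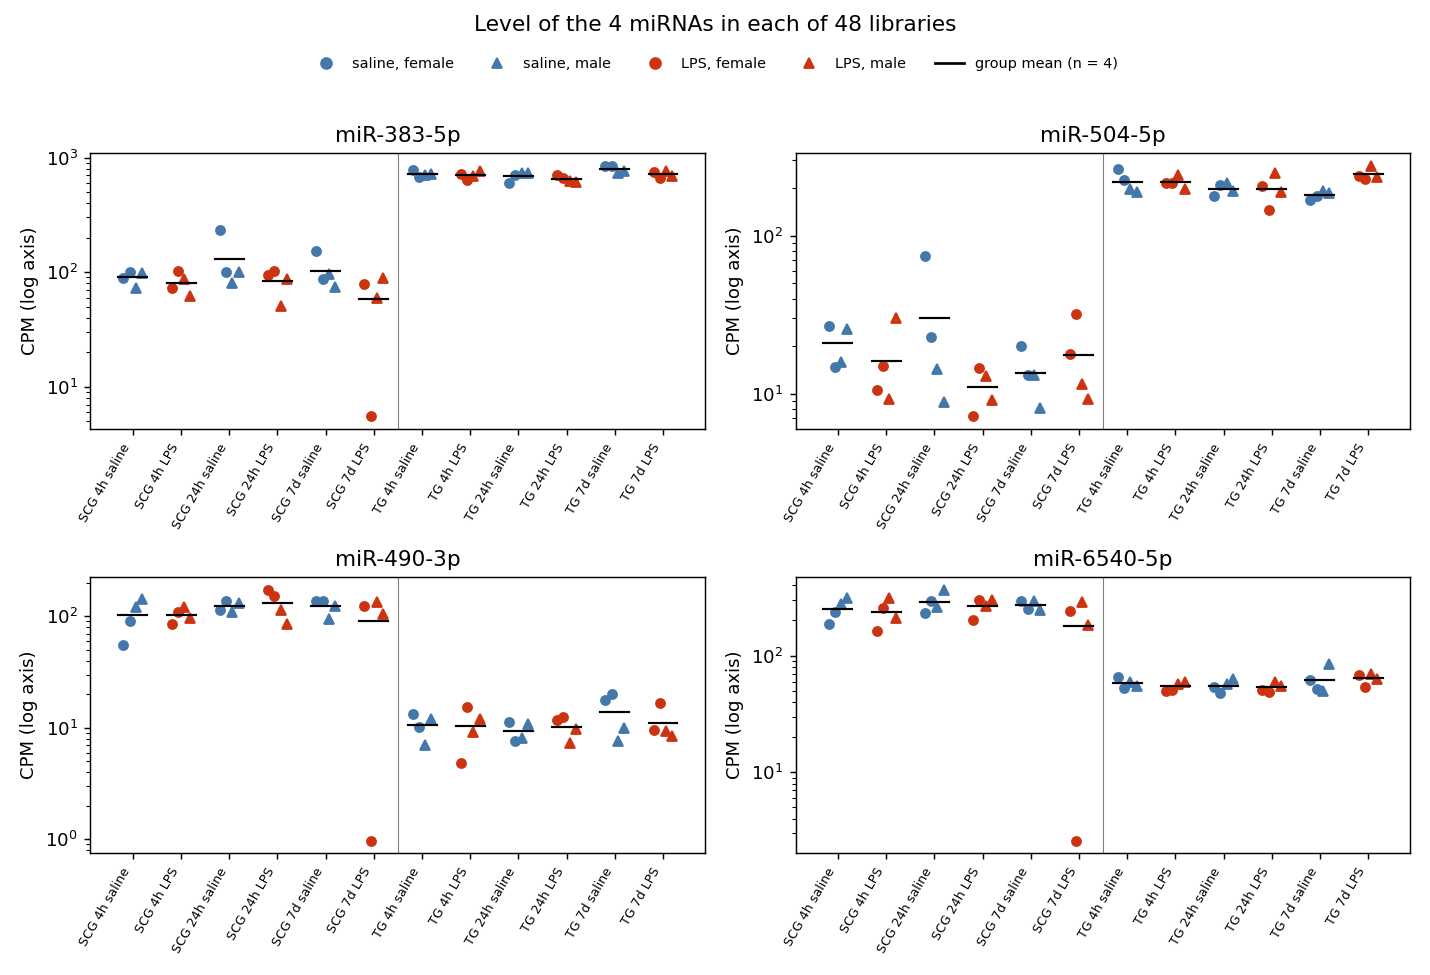
Levels of the 4 miRNAs in each library, in CPM on a log axis, for the 12 groups of ganglion, time and treatment. Circles are female and triangles male libraries, and black bars are group means (n = 4). miR-383-5p and miR-504-5p are higher in every TG library than in every SCG library, while miR-490-3p and miR-6540-5p are higher in SCG except in 1 library, SCG 7 d LPS replicate 2 (0.977 and 2.60 CPM).

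miR-383-5p, from the Sgcz intron, was high in TG and present in every SCG library. At 4 h in SCG it stood at 89.3, 99.7, 72.9 and 98.7 CPM after saline and at 72.8, 102, 86.7 and 62.6 CPM after LPS. At 24 h in SCG it stood at 236, 100.2, 80.6 and 101 CPM after saline and at 94.7, 103, 51.2 and 87.1 CPM after LPS. At 7 d in SCG it stood at 154, 88.02, 96.6 and 75.03 CPM after saline and at 78.8, 5.53, 59.8 and 88.2 CPM after LPS. Its SCG levels lay mostly between 51.2 and 154 CPM, with SCG 24 h saline replicate 1 above them at 236 CPM and SCG 7 d LPS replicate 2 below them at 5.53 CPM. At 4 h in TG it stood at 771, 674, 705 and 723 CPM after saline and at 722, 638, 686 and 755 CPM after LPS. At 24 h in TG it stood at 603, 706, 734 and 729.7 CPM after saline and at 708, 665, 626 and 615 CPM after LPS. At 7 d in TG it stood at 838, 848, 727 and 762 CPM after saline and at 741, 657, 762 and 692 CPM after LPS. The TG libraries spanned 603 to 848 CPM, and the lowest of them exceeded the highest SCG library. Mean levels were 735.1 ± 66.4 CPM in TG and 108 ± 45.4 CPM in SCG after saline (SD, n = 12 each), and 689 ± 50.01 and 74.4 ± 27.2 CPM after LPS. Without SCG 7 d LPS replicate 2 the SCG mean after LPS was 80.6 ± 17.3 CPM (SD, n = 11). Leaving out SCG 24 h saline replicate 1 gave an SCG mean after saline of 95.99 ± 21.8 CPM (SD, n = 11). By group mean the order ran from TG 7 d saline (794 CPM) to TG 24 h LPS (653 CPM), then from SCG 24 h saline (129 CPM) to SCG 7 d LPS (58.1 CPM). SCG 7 d LPS was also last without its replicate 2 (75.6 CPM, n = 3), and SCG 24 h saline without its replicate 1 (93.9 CPM, n = 3) came after SCG 7 d saline (103 CPM). Neighbours in this order overlapped except at the step from TG to SCG.

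miR-504-5p, the X-linked member, was high in TG and low in SCG, where it rested on 22 to 231 counts per library. The 4 h SCG libraries held 27.04, 14.9, 15.8 and 25.7 CPM after saline and 10.6, 14.96, 9.34 and 30.2 CPM after LPS. The 24 h SCG libraries held 74.4, 22.9, 14.3 and 8.90 CPM after saline and 7.21, 14.6, 13.03 and 9.17 CPM after LPS. The 7 d SCG libraries held 20.01, 13.2, 13.2 and 8.09 CPM after saline and 18.0, 31.9, 11.6 and 9.28 CPM after LPS. SCG levels ran from 7.21 to 31.9 CPM apart from SCG 24 h saline replicate 1 at 74.4 CPM, so that group had an SD as large as its mean (30.1 ± 30.1 CPM, n = 4). In SCG 7 d LPS replicate 2, where the other 3 members were at their lowest, miR-504-5p was at 31.9 CPM, the highest of its group. The 4 h TG libraries held 266.5, 225, 197 and 190.5 CPM after saline and 217, 216, 244 and 199 CPM after LPS. The 24 h TG libraries held 179, 209.5, 217 and 191 CPM after saline and 208, 146, 249 and 189 CPM after LPS. The 7 d TG libraries held 168, 179.7, 192 and 187 CPM after saline and 238, 228, 278 and 236 CPM after LPS. All TG libraries lay between 146 and 278 CPM, above every SCG library. The 7 d groups of TG were the only saline and LPS groups of the 24 pairs (4 members, 2 ganglia, 3 times) that did not overlap, with all 4 LPS libraries above all 4 saline libraries. In that contrast 36 of the 538 miRNAs tested in TG (6.69%) did not overlap, 17 of them with LPS above saline, and 6.13% were called by edgeR. Means were 200.2 ± 26.4 CPM in TG and 21.5 ± 17.7 CPM in SCG after saline, and 221 ± 33.6 and 15.0 ± 8.09 CPM after LPS (SD, n = 12 each). Leaving out SCG 24 h saline replicate 1 gave an SCG mean after saline of 16.73 ± 6.38 CPM (SD, n = 11). Without SCG 7 d LPS replicate 2 the SCG mean after LPS was 13.45 ± 6.385 CPM (SD, n = 11). The group order ran from TG 7 d LPS (245 CPM) to TG 7 d saline (182 CPM), then from SCG 24 h saline (30.1 CPM) to SCG 24 h LPS (11.01 CPM), and neighbours overlapped except between the ganglia. The first place in SCG rested on 1 library: without replicate 1, SCG 24 h saline was at 15.4 ± 7.03 CPM (SD, n = 3), and SCG 4 h saline (20.9 ± 6.39 CPM, n = 4) came first.

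miR-490-3p, from the intron of the M2 receptor gene, was high in SCG and low in TG. SCG libraries taken at 4 h gave 55.1, 89.95, 120.1 and 144 CPM after saline and 85.3, 110.1, 120.1 and 96.7 CPM after LPS. SCG libraries taken at 24 h gave 114, 136, 109.5 and 133 CPM after saline and 173, 151, 114 and 84.9 CPM after LPS. SCG libraries taken at 7 d gave 138.5, 138, 94.03 and 124 CPM after saline and 124, 0.977, 134.5 and 105 CPM after LPS. Of the 24 SCG libraries, 22 held 84.9 to 173 CPM. The exceptions were SCG 4 h saline replicate 1 (55.1 CPM) and SCG 7 d LPS replicate 2, where 3 counts gave 0.977 CPM (exact Poisson 95% interval 0.201 to 2.85 CPM, counting error only). TG libraries taken at 4 h gave 13.3, 10.2, 7.03 and 11.9 CPM after saline and 4.83, 15.3, 9.23 and 11.9 CPM after LPS. TG libraries taken at 24 h gave 11.2, 7.61, 8.17 and 10.8 CPM after saline and 11.6, 12.4, 7.26 and 9.72 CPM after LPS. TG libraries taken at 7 d gave 17.7, 19.9, 7.63 and 9.89 CPM after saline and 9.49, 16.6, 9.44 and 8.36 CPM after LPS. TG levels lay between 4.83 and 19.9 CPM and rested on 10 to 106 counts per library. Means were 116 ± 26.0 CPM in SCG and 11.3 ± 4.03 CPM in TG after saline, and 108 ± 42.5 and 10.5 ± 3.29 CPM after LPS (SD, n = 12 each). Without SCG 7 d LPS replicate 2 the SCG mean after LPS was 118 ± 27.0 CPM (SD, n = 11), and no SCG library was then below any TG library. The group order ran from SCG 24 h LPS (131 CPM) to SCG 7 d LPS (91.1 CPM), then from TG 7 d saline (13.8 CPM) to TG 24 h saline (9.45 CPM). The place of SCG 7 d LPS rested on its replicate 2: without it the group was at 121 ± 14.9 CPM (SD, n = 3), the fourth in SCG, and SCG 4 h saline (102 ± 38.3 CPM, n = 4) was last. That last place rested in turn on SCG 4 h saline replicate 1. Without the 3 libraries that stood apart, SCG 4 h saline was at 118 ± 26.9 CPM (SD, n = 3). SCG 4 h LPS (103 ± 15.2 CPM, n = 4) was then last of SCG.

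miR-6540-5p, from the Gap43 intron, was high in SCG and present in every TG library. For SCG at 4 h, saline gave 188, 235, 276 and 312 CPM and LPS gave 164, 255, 312 and 209 CPM. For SCG at 24 h, saline gave 233, 295, 263 and 366 CPM and LPS gave 200.5, 297.5, 264 and 301 CPM. For SCG at 7 d, saline gave 294, 251, 292 and 248 CPM and LPS gave 240.2, 2.60, 290.4 and 184 CPM. SCG levels ran from 164 to 366 CPM, except for SCG 7 d LPS replicate 2 at 2.60 CPM (8 counts, exact Poisson 95% interval 1.12 to 5.13 CPM). For TG at 4 h, saline gave 65.0, 52.9, 59.1 and 55.4 CPM and LPS gave 50.2, 51.1, 57.3 and 59.9 CPM. For TG at 24 h, saline gave 53.6, 47.5, 56.6 and 62.5 CPM and LPS gave 51.05, 48.8, 59.6 and 55.02 CPM. For TG at 7 d, saline gave 62.2, 51.3, 49.9 and 84.2 CPM and LPS gave 68.7, 53.9, 70.1 and 62.99 CPM. TG levels lay between 47.5 and 84.2 CPM, all below the other 23 SCG libraries. Means were 271 ± 45.7 CPM in SCG and 58.4 ± 9.76 CPM in TG after saline, and 227 ± 86.0 and 57.4 ± 7.11 CPM after LPS (SD, n = 12 each). Leaving out SCG 7 d LPS replicate 2 gave an SCG mean after LPS of 247 ± 51.5 CPM (SD, n = 11). By group mean, SCG 24 h saline (289 CPM) stood first and SCG 7 d LPS (179 CPM) last of SCG. Without its replicate 2, SCG 7 d LPS was at 238 ± 53.3 CPM (SD, n = 3), and SCG 4 h LPS (235 ± 63.3 CPM, n = 4) was last. In TG the means ran from 63.9 CPM at 7 d after LPS to 53.6 CPM at 24 h after LPS, and neighbours overlapped.

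In the saline libraries that chose the members, the log2 fold change of TG over SCG was 2.73 ± 0.14 (SE) for miR-383-5p and 3.28 ± 0.25 for miR-504-5p. It was -3.46 ± 0.17 for miR-490-3p and -2.28 ± 0.10 for miR-6540-5p. Over the alternatives it ran from 2.65 to 2.94 for miR-383-5p and from 3.19 to 3.67 for miR-504-5p. For miR-490-3p it ran from -3.54 to -3.3 and for miR-6540-5p from -2.36 to -2.18. Among 541 miRNAs fitted, miR-504-5p ranked 21 and miR-383-5p 27 of the 267 higher in TG. miR-490-3p ranked 8 and miR-6540-5p 23 of the 274 higher in SCG. The choice gave no cut-off, so members just inside and outside one cannot be shown.

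The choice rested on the saline libraries. The LPS libraries came from other mice than the saline libraries, and each member was on the same side in them, but the members were picked with earlier results of all these data known, so this is not independent support. Over the 3 times together, edgeR's quasi-likelihood test called 4 of 4 members, against 53.2% of all 560 miRNAs tested (25.7% higher and 27.5% lower in TG). A called difference between these ganglia was thus common. By size, miR-504-5p ranked 16 and miR-383-5p 21 of the 251 miRNAs higher in TG, and miR-490-3p 7 and miR-6540-5p 37 of the 309 higher in SCG. miR-504-5p was 14.7-fold higher in TG (log2 3.88 ± 0.24 SE, adjusted p = 5.01e-11, edgeR) and miR-383-5p 9.30-fold higher (3.22 ± 0.27, adjusted p = 7.83e-09, edgeR). miR-490-3p was 10.2-fold lower in TG (-3.36 ± 0.41, adjusted p = 1.64e-06, edgeR) and miR-6540-5p 3.89-fold lower (-1.96 ± 0.36, adjusted p = 0.000137, edgeR). Without SCG 7 d LPS replicate 2 the log2 values were 4.05, 3.09, -3.49 and -2.10 in the same order, and 69.4% of 568 miRNAs were called. The median log2 value over all miRNAs was -0.11, and it was -0.05 without that library.

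Each time point gave the same sides. At 4 h 4 of 4 members passed, against 27.7% of all miRNAs (12% higher and 15.7% lower in TG). At 24 h 4 of 4 passed, against 30.5% (16.6% higher and 13.9% lower). At 7 d 3 of 4 passed, against 29.6% (13.2% higher and 16.4% lower). The exception was miR-6540-5p at 7 d, with a log2 fold change of -1.47 ± 0.61 (adjusted p = 0.0746, edgeR). Without SCG 7 d LPS replicate 2 its value was -1.88 ± 0.17 (adjusted p = 1.45e-08, edgeR), and 46.5% of all miRNAs were then called. Over all alternatives its adjusted p ran from 1.45e-08 to 0.225. The times shared 1 estimate of the spread, so SCG 7 d LPS replicate 2 also bore on the calls at 4 h and 24 h. Without that library 4 of 4 members passed at each time. Of all miRNAs, 48.4% were then called at 4 h and 52.8% at 24 h. For miR-504-5p the log2 value was 3.74 ± 0.41 at 4 h, 4.17 ± 0.42 at 24 h and 3.73 ± 0.41 at 7 d. For miR-490-3p it was -3.31 ± 0.72, -3.66 ± 0.73 and -3.10 ± 0.71. Without SCG 7 d LPS replicate 2 the 7 d values were 4.22 ± 0.34 for miR-504-5p and -3.53 ± 0.28 for miR-490-3p. Whether the difference between ganglia changed with LPS was not tested, since its saline side chose the members.

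**Figure D2:**
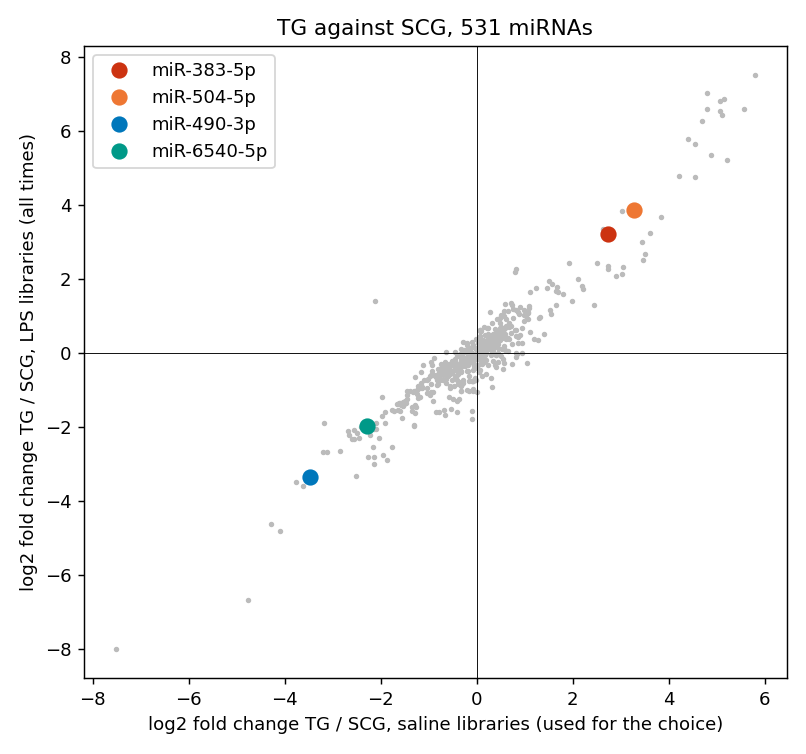
Log2 fold change of TG over SCG in saline libraries (x axis, used for the choice) and in LPS libraries over all times (y axis) for 531 miRNAs tested in both (grey). Coloured points are the 4 members, which lie at 3.88 and 3.22 (miR-504-5p and miR-383-5p) and at -3.36 and -1.96 (miR-490-3p and miR-6540-5p) in the LPS libraries.

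Markers of cell types were compared between the ganglia in the same LPS libraries, over the 3 times together. Of all 560 miRNAs 53.2% were called in this contrast, and 69.4% of 568 without SCG 7 d LPS replicate 2. Of the sensory neuron markers 3 of 3 were higher in TG (median log2 6.28), and of the myelinating glia markers 3 of 3 (median 5.23). Of the neuron markers 2 of 7 were higher and 2 lower (median 0.69). Smooth muscle and mesenchyme markers were lower in TG in 5 of 5 (median -1.60), leukocyte markers in 3 of 4 (median -1.30) and endothelium markers in 2 of 2 (median -0.65). Among skeletal and heart muscle markers 3 of 5 tested were higher (median 1.30), among epithelium and pituitary markers 4 of 8 higher and 1 lower (median 2.21), and among red cell markers 1 of 3 higher (median 0.38). SCG 7 d LPS replicate 2 was among these libraries, and without it the lists read differently. Leukocyte markers were then lower in TG in 3 of 4 over all times (median -0.69) but in 0 of 4 at 7 d (median -0.50), where 3 of 4 had been called with it (median -2.20). Smooth muscle and mesenchyme markers were lower in 5 of 5 (median -1.42), and endothelium markers in 2 of 2 (median -0.58). Of the neuron markers 4 of 7 were higher and 3 lower (median 0.55), of the muscle markers 4 of 5 higher (median 2.32), and of the epithelium and pituitary markers 6 of 8 higher and 1 lower (median 3.96). Sensory neuron, myelinating glia and red cell markers had the same counts (medians 6.41, 5.85 and 0.52). The part of these cell types in the members' differences was not tested.

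With the sex term, edgeR called no member for LPS. Over the 6 comparisons of LPS with saline (2 ganglia, 3 times), 0 of 24 member tests passed with edgeR, 2 had an unadjusted p under 0.05, DESeq2 called 1, and edgeR without the sex term called 1 (both miR-504-5p in TG at 7 d). Of all miRNAs tested, edgeR called 0% at 4 h, 0.395% at 24 h and 0.593% at 7 d in SCG. In TG it called 0% at 4 h, 0.372% at 24 h and 6.13% at 7 d. The saline side at 7 d in TG held 3 libraries with miR-124-3p at 605 to 628 CPM, against 234 to 354 CPM in the other 21 TG libraries. Among TG saline libraries 7.62% of miRNAs were called for time. The 33 calls for LPS in TG at 7 d ran from 1 to 88 over the alternatives. What set the 3 libraries apart was not tested. The standard errors of the members' log2 fold changes were 0.09 to 0.29 in TG and 0.49 to 0.65 in SCG, so a change as small as those measurable in TG was not detectable in SCG. Without SCG 7 d LPS replicate 2 the SCG standard errors were 0.18 to 0.55.

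The member nearest to a call was miR-504-5p in TG at 7 d. Its LPS libraries held 228 to 278 CPM and its saline libraries 168 to 192 CPM, a log2 fold change of 0.43 ± 0.13 (unadjusted p = 0.00401, adjusted p = 0.0583, edgeR). DESeq2 called it (adjusted p = 0.0319), and so did edgeR without the sex term (adjusted p = 0.0494), and over all alternatives the adjusted p ran from 0.0319 to 0.882. The 7 d LPS range overlapped the saline ranges at earlier times, which reached 266.5 CPM at 4 h and 217 CPM at 24 h. Set against those 8 saline libraries, the log2 fold change of TG 7 d LPS was 0.24 (adjusted p = 0.882, edgeR). In the same contrast against 7 d saline the sensory marker miR-183-5p had 0.34 ± 0.11 (adjusted p = 0.0685, edgeR), 0 of 3 sensory neuron markers passed, and 3 of 7 neuron markers were lower. The part of these markers in the miR-504-5p value was not tested.

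In SCG at 24 h miR-504-5p had a log2 fold change of -1.26 ± 0.54 (unadjusted p = 0.0303, adjusted p = 0.78, edgeR). The 4 saline values of that group were 8.90 to 74.4 CPM and the 4 LPS values 7.21 to 14.6 CPM, so the groups overlapped. Without SCG 24 h saline replicate 1, the library with the high miR-183-5p, the value was -0.42. At 7 d in SCG, miR-383-5p had -0.78 ± 0.50, miR-490-3p -0.48 ± 0.63 and miR-6540-5p -0.67 ± 0.60. These became, without SCG 7 d LPS replicate 2, -0.33 ± 0.29, -0.01 ± 0.24 and -0.21 ± 0.20. The remaining TG values lay between -0.30 (miR-490-3p at 7 d) and 0.11 (miR-490-3p at 24 h).

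**Figure D3:**
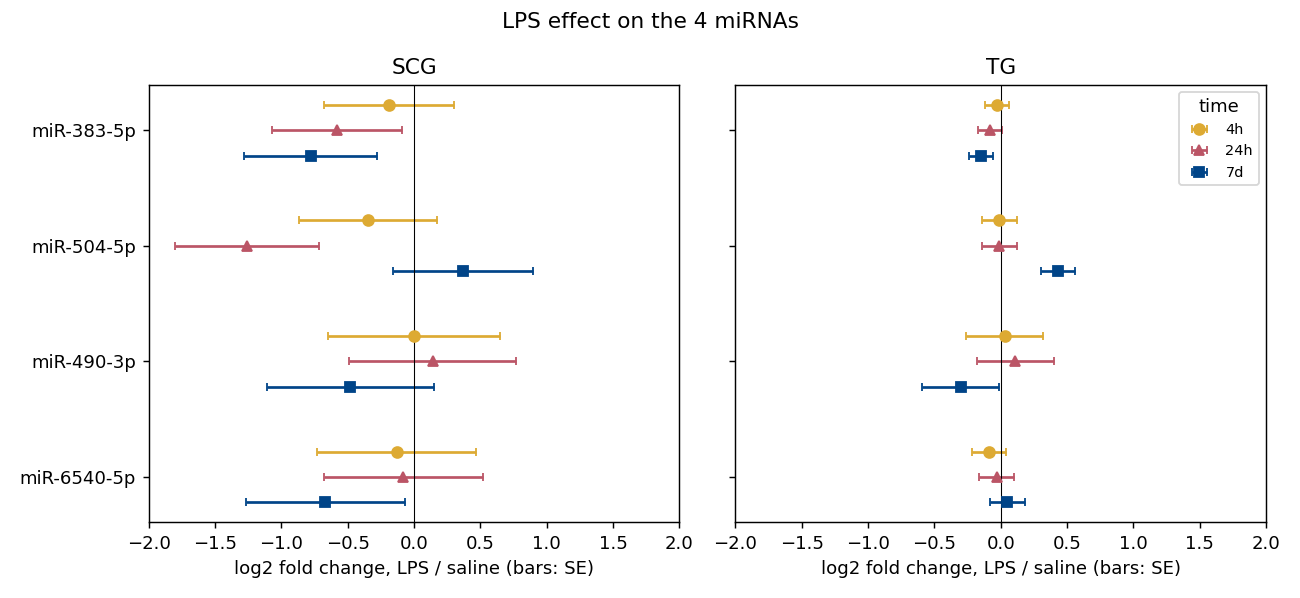
Log2 fold change of LPS over saline (x axis, bars are SE) for the 4 members in each ganglion at the 3 times, each from 4 against 4 libraries. The TG values other than miR-504-5p at 7 d (0.43) lie between -0.30 and 0.11, and the SCG bars are wider.

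Among saline libraries the members did not differ with time past the threshold: 0 of 8 tests passed with edgeR and 0 with DESeq2, and 0 had an unadjusted p under 0.05. Of all miRNAs, 0% in SCG and 7.62% in TG were called for time. The smallest adjusted p of a member was 0.243 (edgeR), for miR-383-5p in TG, whose saline means were 718, 693 and 794 CPM at 4 h, 24 h and 7 d. Between the sexes 0 of 8 member tests passed with either tool and 1 had an unadjusted p under 0.05, while 0.988% of all miRNAs in SCG and 0% in TG were called. X-linked miR-504-5p had a log2 fold change of male over female of 0.05 ± 0.08 in TG (adjusted p = 0.984, edgeR) and -0.54 ± 0.32 in SCG (adjusted p = 0.433, edgeR). Over all alternatives its SCG value ran from -0.75 to -0.15 and was not called. The test with a small unadjusted p was miR-490-3p in TG, at -0.43 ± 0.17 (unadjusted p = 0.0188, adjusted p = 0.984, edgeR). Without SCG 7 d LPS replicate 2, miR-383-5p in SCG had -0.41 ± 0.16 (unadjusted p = 0.0169, adjusted p = 0.137, edgeR).

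The second arm of each hairpin was counted too. Its levels were not used in the choice, but both arms come from 1 transcript, so the second arm is not independent support. miR-490-5p was lower in TG than in SCG after LPS by a log2 value of -3.60 ± 0.45 (adjusted p = 1.83e-06, edgeR), close in size to -3.36 for miR-490-3p. miR-6540-3p was also lower in TG, by -1.89 ± 0.47 (adjusted p = 0.00249, edgeR), on far fewer counts (204 in SCG and 50 in TG over all libraries). Of all miRNAs 53.2% were called in this contrast. By time, the edgeR adjusted p of miR-6540-3p was 0.0926 at 4 h, 0.0263 at 24 h and 0.293 at 7 d. Without SCG 7 d LPS replicate 2 these edgeR values were 0.0255, 0.00326 and 0.0554. The other arms of miR-383 and miR-504 were nearly absent, with 2 and 18 counts of miR-383-3p and 8 and 22 counts of miR-504-3p in SCG and TG.

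For the miR-490 hairpin the ratio of arms could be followed per library. After LPS, miR-490-5p stood at 27.3 ± 13.7 counts per 100 counts of miR-490-3p in TG (SD, n = 12) and at 28.9 ± 4.76 in SCG (n = 11, the libraries with counts of both arms). The log2 ratios differed by -0.26 between the ganglia, which a two-sided permutation test did not separate (p = 0.324, adjusted p = 0.432). After saline the ratio was 27.1 ± 7.43 in TG and 33.6 ± 18.3 in SCG (n = 12 each), or 28.5 ± 4.88 in SCG without SCG 4 h saline replicate 1, where it was 89.8. The TG ratios rested on 270 counts of miR-490-5p in all and the SCG ratios on 2585, and the TG ratios after LPS spread more widely, from 8.70 to 50.

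**Figure D4:**
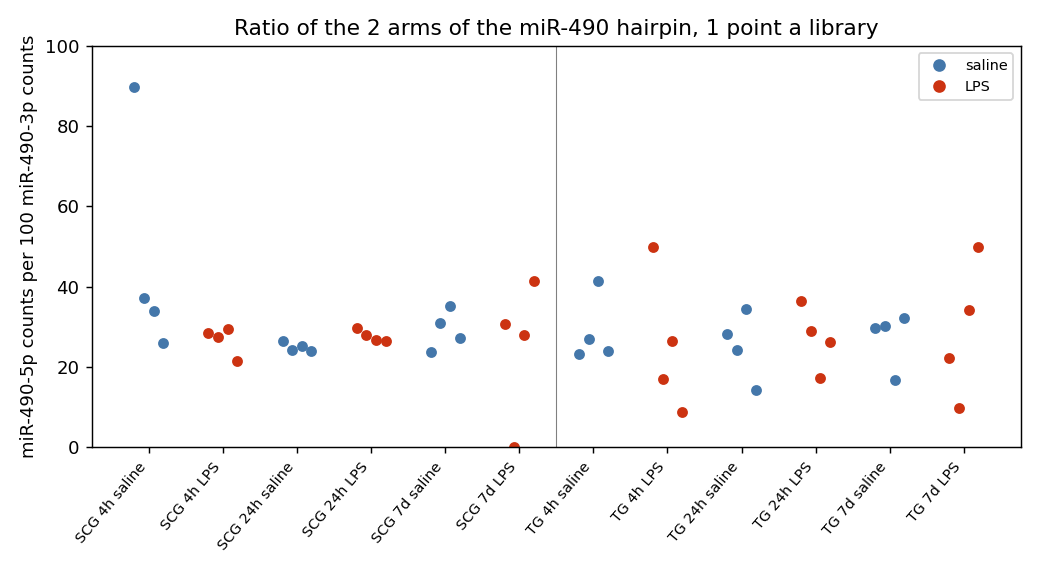
Counts of miR-490-5p per 100 counts of miR-490-3p in each library (y axis, linear), by group, blue for saline and red for LPS. Most libraries lie between 8.70 and 50, 1 library (SCG 4 h saline replicate 1) lies at 89.8, and SCG 7 d LPS replicate 2 lies at 0 on 3 counts of miR-490-3p.

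Within each ganglion, the levels of 2 members varied together with a neuronal marker. These 28 relations (6 pairs of members and 8 pairs of a member with miR-183-5p or miR-124-3p, in each ganglion, without SCG 7 d LPS replicate 2) were added after the data were seen and are on the log2 CPM scale. miR-504-5p followed the sensory marker miR-183-5p, with Pearson r = 0.737 in 23 SCG libraries (permutation p = 0.00011, adjusted p = 0.00103) and Spearman rho = 0.681 (permutation p = 0.00044, adjusted p = 0.00308). In 24 TG libraries r was 0.687 (permutation p = 0.0002, adjusted p = 0.0014) and rho was 0.778 (permutation p = 3e-05, adjusted p = 0.00084). Without the 2 libraries farthest from the median of miR-504-5p, r was 0.506 in SCG and 0.751 in TG. Within groups, after removal of the group means, r was 0.685 and 0.573. The permutations shuffled libraries across the groups of time and treatment, so differences between groups enter the p-values. The within-group values here and below were not tested. In SCG without SCG 24 h saline replicate 1 alone, r was 0.566 (permutation p = 0.0054).

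miR-383-5p followed miR-124-3p, 1 of the 7 neuron markers listed. The other neuron markers were not among these relations, so the values are for miR-124-3p alone. In SCG r was 0.713 (permutation p = 7e-05, adjusted p = 0.00098) and rho was 0.759 (permutation p = 6e-05, adjusted p = 0.00084). In TG r was 0.728 (permutation p = 3e-05, adjusted p = 0.00084) and rho was 0.673 (permutation p = 0.00036, adjusted p = 0.00308). Leaving out the 2 farthest libraries gave 0.638 and 0.641, and the within-group values were 0.760 and 0.564. In TG, 3 of the 4 libraries at 7 d after saline stood apart with miR-124-3p at 605 to 628 CPM against 234 to 354 CPM in the other 21, and without them r was 0.541 (permutation p = 0.012).

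miR-383-5p with miR-183-5p in SCG had r = 0.706 (permutation p = 0.00046, adjusted p = 0.00258), but 0.312 without the 2 farthest libraries, so it rested on them. miR-490-3p with miR-124-3p in TG had r = 0.524 (permutation p = 0.00867, adjusted p = 0.0405) and rho = 0.461 (permutation p = 0.0245, adjusted p = 0.115), with 0.437 for r without the 2 farthest libraries and 0.511 within groups. In SCG this pair had r = 0.422 (permutation p = 0.0441, adjusted p = 0.137) and rho = 0.510 (permutation p = 0.0139, adjusted p = 0.078), with 0.468 and 0.389 in the same order. None of the 12 pairs of members passed after adjustment. The nearest was miR-504-5p with miR-383-5p in SCG, at r = 0.510 (permutation p = 0.02, adjusted p = 0.0802). The levels are shares of 1 library total, and the markers' cells can differ in number between libraries, so what moves the pairs together was not tested.

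**Figure D5:**
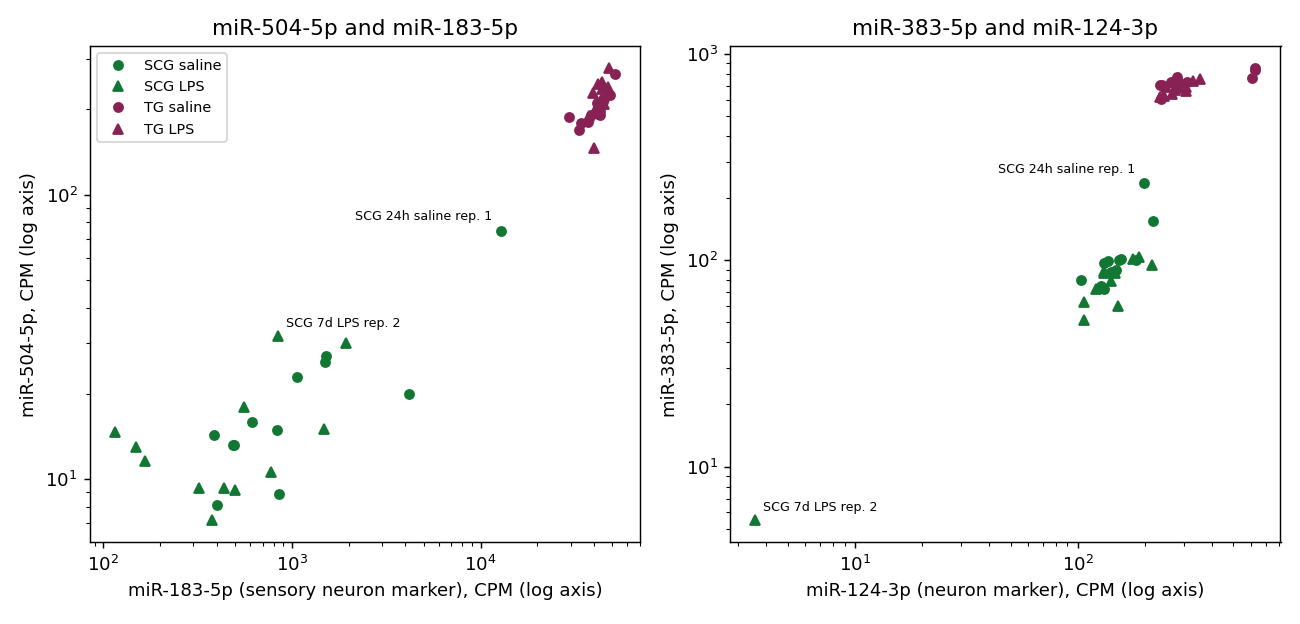
Level of miR-504-5p against the sensory neuron marker miR-183-5p (left) and of miR-383-5p against miR-124-3p, 1 of the neuron markers (right). Axes are CPM on log scales, 1 point a library (circles saline, triangles LPS, green SCG, purple TG). Within SCG, SCG 24 h saline replicate 1 is highest on the left (74.4 CPM), and SCG 7 d LPS replicate 2, which was left out of the correlations, is lowest on the right (5.53 CPM).

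By Pearson r of log2 CPM over the 48 libraries, which share the difference between ganglia, the miRNAs most like miR-383-5p were miR-338-3p (0.982), a myelinating glia marker, miR-338-5p (0.964) and miR-216a-3p (0.936). For miR-504-5p they were miR-96-5p (0.980), miR-34a-5p (0.978) and miR-182-5p (0.975), of which miR-96-5p and miR-182-5p belong to the sensory neuron markers. miR-490-3p was most like miR-218-5p (0.984), miR-409-3p (0.968) and its own second arm miR-490-5p (0.966). miR-6540-5p was most like miR-541-5p (0.985), miR-381-3p (0.982) and miR-370-3p (0.982). SCG 7 d LPS replicate 2 was among these 48 libraries, and r over them without it was not computed. Over the 24 libraries of TG alone, miR-128-3p (0.803), miR-433-3p (0.744) and miR-9-5p (0.735) were most like miR-383-5p. There miR-182-5p (0.795), miR-216a-3p (0.781) and miR-674-3p (0.752) were most like miR-504-5p. Over the 24 SCG libraries 1 library set the list: with SCG 7 d LPS replicate 2, miR-490-3p was most like miR-758-3p (0.987), and without it most like miR-24-3p (0.889). For miR-6540-5p miR-382-5p came first both with (0.990) and without (0.780) that library.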

How the data were processed

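Small RNA libraries were made from 140 ng of RNA with a ligation-based kit, per the labels' protocols. The authors deposited whole-number counts per mature miRNA, without normalization. FastQC 0.11.9 and the build GRCm39 are named in the submitters' processing notes. The aligner and counter: not given in the sources used here. Members and lists were chosen with earlier results of these data known. Counts were scaled by TMM (factors 0.854 to 1.195) and tested with edgeR 4.0.16 in R 4.3.3 (quasi-likelihood F-test, two-sided, filter with a minimum count of 10, sex as covariate, Benjamini-Hochberg over all miRNAs tested, threshold 0.05). DESeq2 1.42.0, RLE scaling, no filter, no sex term and leaving out libraries were alternatives. SE is the log2 fold change divided by the square root of F. Named are the members, their second arms, the 3 miRNAs most like each, and marker lists. Correlations used log2 CPM with 0.5 added to the counts, but for miR-183-5p and miR-124-3p in the 28 relations 0.5 was added to CPM. The correlations without SCG 24 h saline replicate 1 alone, or without the 3 TG libraries high in miR-124-3p, added 0.5 to CPM on both sides. Permutation tests used 100000 permutations (SciPy 1.17.1). All 48 columns were mapped to samples. The spelling of LPS lacks its first letter in 2 column names, and treatment was taken from the labels.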

Additional observations from a re-analysis of the deposited data

Results flagged for a closer look

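Of the 48 groups of 4 libraries (4 members, 12 groups), 2 held a library far from the other 3, where chance gives about 1 in 20 groups. miR-383-5p stood at 236 CPM in SCG 24 h saline replicate 1, against 80.6 to 101 CPM in the other 3 libraries of that group. The same library held miR-183-5p at 12810 CPM, and the part of sensory neurons in the value was not tested. miR-490-3p stood at 16.6 CPM in TG 7 d LPS replicate 2, against 8.36 to 9.49 CPM in the other 3.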

How the results depend on the processing

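No paired analysis was possible because replicate numbers follow label order and mark no shared animal. The calls of TG against SCG after LPS, over the 3 times together, held for all 4 members under all 29 alternatives. The fit without SCG 7 d LPS replicate 2 is counted both as its own alternative and among the single libraries left out. At 7 d, miR-6540-5p was also called by DESeq2 (adjusted p = 0.0428), without the filter (adjusted p = 0.00154), and without SCG 7 d LPS replicate 2 (range over alternatives 1.45e-08 to 0.225). In TG at 7 d, 1 member (miR-504-5p) was called by DESeq2 and without the sex term, and leaving out 1 library each gave 0 to 1 (1 without TG 7 d saline replicate 3). Leaving out SCG 24 h saline replicate 1 moved the LPS value of miR-504-5p in SCG at 24 h from -1.26 to -0.42.

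Signs turned only for uncalled log2 values, and the cause was not tested. For LPS in SCG at 4 h, miR-490-3p had 0.03 by DESeq2 and with RLE scaling, 0.08 without the filter, 0 without SCG 7 d LPS replicate 2 and 0.05 from the 8 libraries of that time. For LPS in SCG at 7 d without the 3 libraries that stood apart, an alternative added after the data were seen, miR-504-5p had -0.03 and miR-490-3p 0. For sex in SCG, miR-490-3p had -0.02 without SCG 7 d LPS replicate 2 and -0.11 without the 3. For LPS in TG at 4 h, miR-504-5p had 0.01 without the filter and from the 8 libraries of that time. Against earlier saline (4 h and 24 h together), also added after the data were seen, TG 7 d LPS had 0.03 for miR-383-5p and 0.13 for miR-490-3p. Leaving out 1 library each, LPS in SCG at 4 h gave -1.02 to 0.01 for miR-504-5p, -0.20 to 0.25 for miR-490-3p and -0.24 to 0 for miR-6540-5p. At 24 h it gave -0.06 to 0.33 for miR-490-3p and -0.20 to 0 for miR-6540-5p. For LPS in TG at 4 h it gave -0.08 to 0.01 for miR-383-5p, -0.12 to 0.11 for miR-504-5p, -0.13 to 0.25 for miR-490-3p and -0.18 to 0 for miR-6540-5p. At 24 h in TG it gave -0.14 to 0.13 for miR-504-5p, -0.06 to 0.25 for miR-490-3p and -0.08 to 0 for miR-6540-5p, and at 7 d -0.04 to 0.25 for miR-6540-5p. For sex it gave -0.02 to 0.29 for miR-490-3p in SCG and -0.04 to 0 for miR-383-5p in TG.

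Counts over all miRNAs moved by more than 1.5 times in most comparisons. For LPS in SCG they were 0, 2 and 3 at 4 h, 24 h and 7 d, and reached 24, 15 and 69 under an alternative (lowest at 7 d 0). For LPS in TG they were 0, 2 and 33, and reached 16, 20 and 88, with 1 as the lowest at 7 d. Leaving out 1 library each gave 18 to 88 at 7 d in TG, and the other alternatives gave 1 to 54. For time among saline libraries they were 0 in SCG and 41 in TG, reaching 23 and 92 (lowest in TG 10). For sex they were 5 in SCG and 0 in TG, reaching 40 and 19 (lowest in SCG 1). For TG against SCG after LPS they were 155, 171 and 166 at the 3 times, and reached 275, 300 and 264 without SCG 7 d LPS replicate 2.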
